A study of Caenorhabditis elegans with 2 samples.

Results

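Binding of the LIM-homeodomain protein LIM-7 was examined at 4 genes for structural RNAs of Caenorhabditis elegans, which are rpr-1, mrpr-1, srpr-1.1 and srpr-1.2, out of 46890 annotated genes on 6 chromosomes. They encode the RNA of RNase P, the RNA of RNase MRP and 2 copies of the RNA of the signal recognition particle (SRP). The genes were chosen by name, with their peaks in these same chromatin immunoprecipitation and sequencing (ChIP-seq) data already known, so the presence of a peak at each is a description and was given no test. The measure was every deposited peak with its summit, the point of highest signal, no more than 1000 bp from the gene. The worms were whole L4 larvae of strain OP779, aged 48.5 hours and synchronised as starved L1 larvae. They carried the integrated array wgIs779, which holds lim-7 fused to TY1, EGFP and 3xFLAG together with unc-119(+), in the unc-119 mutant background tm4063. The labels give no mutation of the native lim-7 gene, the tagged protein was precipitated with an antibody against GFP, and cells of all tissues were pooled. There were 2 biological replicates of this single group. A possible control named in the labels was not analysed here, so no value below was set against a control library.

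RNase P removes the leader from the front of transfer RNA precursors. RNase MRP, whose RNA is related to that of RNase P and which shares most of its proteins, takes part in the cutting of ribosomal RNA precursors. The SRP binds ribosomes that are making secreted or membrane proteins and brings them to the endoplasmic reticulum, and its RNA is the scaffold of the particle. In many animals, though not in all, the RNAs of all 3 particles are products of RNA polymerase III. This enzyme also makes transfer RNA and 5S ribosomal RNA. Transfer RNA genes carry their promoter elements, the A and B boxes, inside the gene. In some other animals the RNase P and RNase MRP RNA genes are known for promoters that lie upstream of the gene. These hold a proximal sequence element bound by the SNAP complex and a TATA box. LIM-7 belongs to the Islet class of homeodomain transcription factors.

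The DNA under the mrpr-1 peak is shown because it holds the summit, the gene start and the upstream letters described below. It is chrII:7200168-7200337 of WBcel235, the sequence of the ce11 build the files use, on the plus strand and 170 bases long. The gene begins at base 66 and the summit is base 86. Capitals mark an 11-base stretch shared with the upstream DNA of rpr-1 and, closer to the gene, a TATA-like run. The starts of the 5 annotated SRP RNA genes are shown to compare the members with their relatives. Each line holds 80 bases before the gene in lower case and the first 40 bases of the gene in capitals, read along the gene. They lie at chrIII:4379167-4379286 (minus strand, srpr-1.1), chrIII:4369388-4369507 (plus, srpr-1.2), chrIII:5211140-5211259 (plus, srpr-2.1), chrIII:5031669-5031788 (minus, srpr-2.2) and chrV:9293593-9293712 (minus, srpr-3).
mrpr-1 peak: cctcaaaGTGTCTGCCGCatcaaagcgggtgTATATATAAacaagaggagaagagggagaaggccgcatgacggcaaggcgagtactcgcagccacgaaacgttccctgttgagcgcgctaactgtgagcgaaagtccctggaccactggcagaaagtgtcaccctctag
srpr-1.1 start: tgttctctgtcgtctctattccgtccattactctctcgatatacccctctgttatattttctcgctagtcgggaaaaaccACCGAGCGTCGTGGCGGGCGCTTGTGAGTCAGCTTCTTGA
srpr-1.2 start: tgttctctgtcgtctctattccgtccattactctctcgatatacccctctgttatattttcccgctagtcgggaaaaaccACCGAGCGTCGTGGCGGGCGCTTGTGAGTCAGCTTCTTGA
srpr-2.1 start: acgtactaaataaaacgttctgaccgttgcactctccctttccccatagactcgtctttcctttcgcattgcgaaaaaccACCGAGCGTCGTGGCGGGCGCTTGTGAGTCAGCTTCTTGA
srpr-2.2 start: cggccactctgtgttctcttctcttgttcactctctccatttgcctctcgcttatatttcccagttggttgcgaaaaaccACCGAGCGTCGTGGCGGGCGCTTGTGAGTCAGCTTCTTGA
srpr-3 start: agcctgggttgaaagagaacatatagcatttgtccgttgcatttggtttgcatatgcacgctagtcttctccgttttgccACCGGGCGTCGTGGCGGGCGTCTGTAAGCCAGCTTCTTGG

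All 4 member genes had a summit within 1000 bp in each of 4 deposited peak lists. These were the list made from both replicates (1804 peaks, the main list), its conservative version (1649 peaks), and the lists of replicate 1 alone (883 peaks) and of replicate 2 alone (920 peaks). Over all 46890 genes the share with such a summit was 7.16% in the main list, 6.81% in the conservative one, 4.43% in the list of replicate 1 and 4.52% in that of replicate 2. Because the members were picked with these peaks known, nothing is read from the difference. In the main list the same distance took in 486 of 612 tRNA genes (79.4%), 105 of 346 snoRNA genes (30.3%) and 32 of 129 snRNA genes (24.8%). The distance limit itself decided no member. The farthest counted summit was 146 bp from its gene, at srpr-1.1, and the nearest main list summits beyond 1000 bp were 23516 bp from rpr-1, 16129 bp from mrpr-1, 9411 bp from srpr-1.1 and 6941 bp from srpr-1.2.

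The RNase P RNA gene had the strongest peak of the members. rpr-1 (WBGene00045238, WBcel235 chromosome I, 13463955 to 13464207, plus strand, 253 nt) lies in an intron of ints-8, a gene for a subunit of the Integrator complex that runs on the other strand. Its peak had a signal value of 260.04 in replicate 1, 317 in replicate 2 and 589.6 in the main list. The authors gave no scale for the signal value, so levels are compared here only by rank within a list. By rank the peak was number 5 of 883 in replicate 1, 6 of 920 in replicate 2 and 4 of 1804 in the main list. The summit was 13 bp inside the gene in replicate 1, 4 bp inside in replicate 2 and 16 bp inside in the main list, where the gene start is 0. Both replicates thus placed it at the front of the gene and among their highest peaks. In the main list the peak was 242 bp wide, from 13463841 to 13464082. The ranked lists hold every candidate peak before thresholding. That of both replicates had 24 peaks of higher signal among 84720, of which 21 were not kept in the thresholded list. Why these 21 were left out was not examined.

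By signal value the RNase MRP RNA gene ranked next. mrpr-1 (WBGene00045095, WBcel235 chromosome II, 7200233 to 7200418, plus strand) lies outside protein-coding genes, 130 bp before pcrg-1 on the same strand. Its signal value was 114 in replicate 1 (rank 233), 136 in replicate 2 (rank 175) and 251 in the main list (rank 191). The summit was 18 bp inside the gene in replicate 1, 9 bp inside in replicate 2 and 20 bp inside in the main list. It was therefore well below the rank of rpr-1 in both replicates but at the same place relative to the gene start. The irreproducible discovery rate (IDR), the expected share of peaks of this rank or better that would not be found again, was 0.000143 in the main list. For rpr-1 it was 1e-05, the lowest value the column takes. The same summit also falls in the promoter windows, 1000 bp upstream to 200 bp downstream of a start, of pcrg-1 (296 bp before its start) and of E04F6.6 (688 bp before its start), so the peak cannot be given to mrpr-1 by distance alone.

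**Figure D1:**
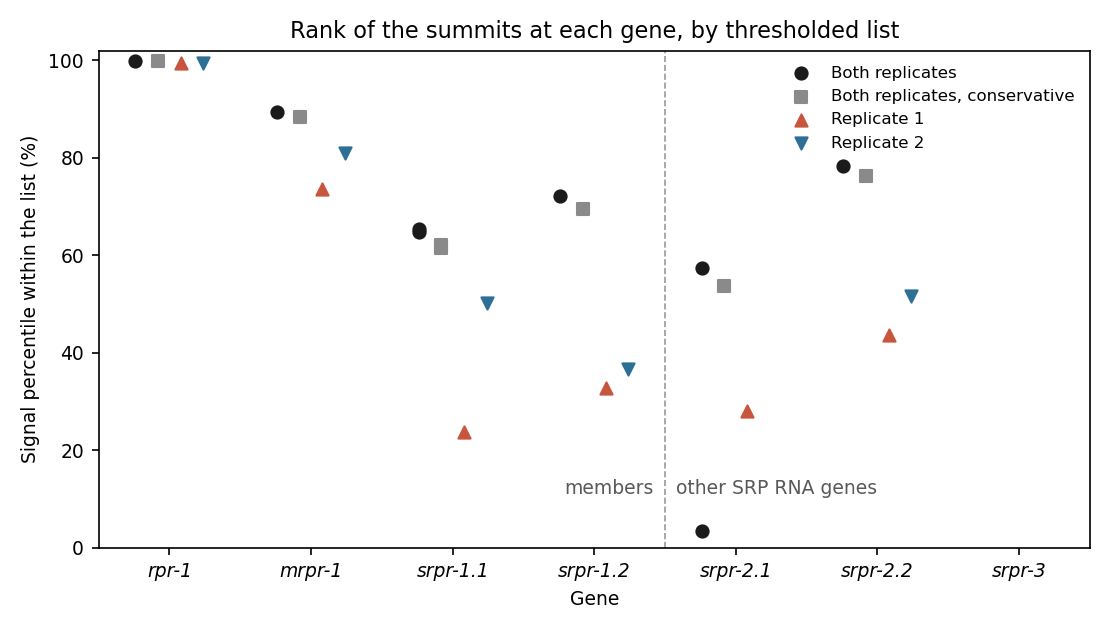
Signal percentile of each thresholded summit within 1000 bp of the gene (vertical axis, percent of the peaks of the list with no higher signal), for the 4 members at the left and the 3 other SRP RNA genes at the right, with 1 symbol per list. Among the genes drawn, rpr-1 has the highest percentile in all 4 lists and mrpr-1 the next, and srpr-3 has no symbol.

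The srpr-1.2 gene (WBGene00045168, WBcel235 chromosome III, 4369468 to 4369766, plus strand, 299 nt) lies in an intron of ckb-2, a choline kinase gene on the same strand. It had 1 peak, with a signal value of 70.8 in replicate 1 (rank 594 of 883), 74.5 in replicate 2 (rank 582 of 920) and 154 in the main list (rank 502 of 1804). Its summit was 6 bp inside the gene in replicate 1, 27 bp inside in replicate 2 and 30 bp inside in the main list. Both replicates held it in the lower part of their lists. A second candidate inside the gene, 240 bp from its start, had a signal value of 79.5 in the ranked list of both replicates and an IDR of 0.0157. It stayed out of the thresholded list, all of whose peaks had an IDR of 0.01 or less. That limit was not the only step, as 160 of the 1964 ranked candidates with such an IDR were also not kept.

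The other copy, srpr-1.1 (WBGene00045189, WBcel235 chromosome III, 4378909 to 4379206, minus strand, 298 nt), was the one member whose replicates differed in where the peak lay. The gene ends 1 bp from the end of pals-26, which runs on the other strand. The main list had a summit 10 bp inside the gene (signal value 132, rank 626) and another 443 bp from the gene start, which is 146 bp past the gene's end in coding sequence of pals-26 (signal value 131, rank 637). In replicate 1 the thresholded peak was the one beyond the gene, with a signal value of 63.8 (rank 674), a summit 85 bp past the gene's end and an IDR of 0.00806. Its candidate at the gene start had a signal value of 45.9 and an IDR of 0.0152. In replicate 2 the thresholded peak was the one at the gene start, with a signal value of 85.7 (rank 459), a summit 1 bp before the gene and an IDR of 0.00182. Its candidate beyond the gene had a signal value of 52.4 and an IDR of 0.0253. Both replicates thus had a candidate at both positions, and a different one passed the threshold in each. The order of the 2 SRP RNA members also turned round, with srpr-1.2 ranked higher than srpr-1.1 in replicate 1 and lower in replicate 2.

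**Figure D2:**
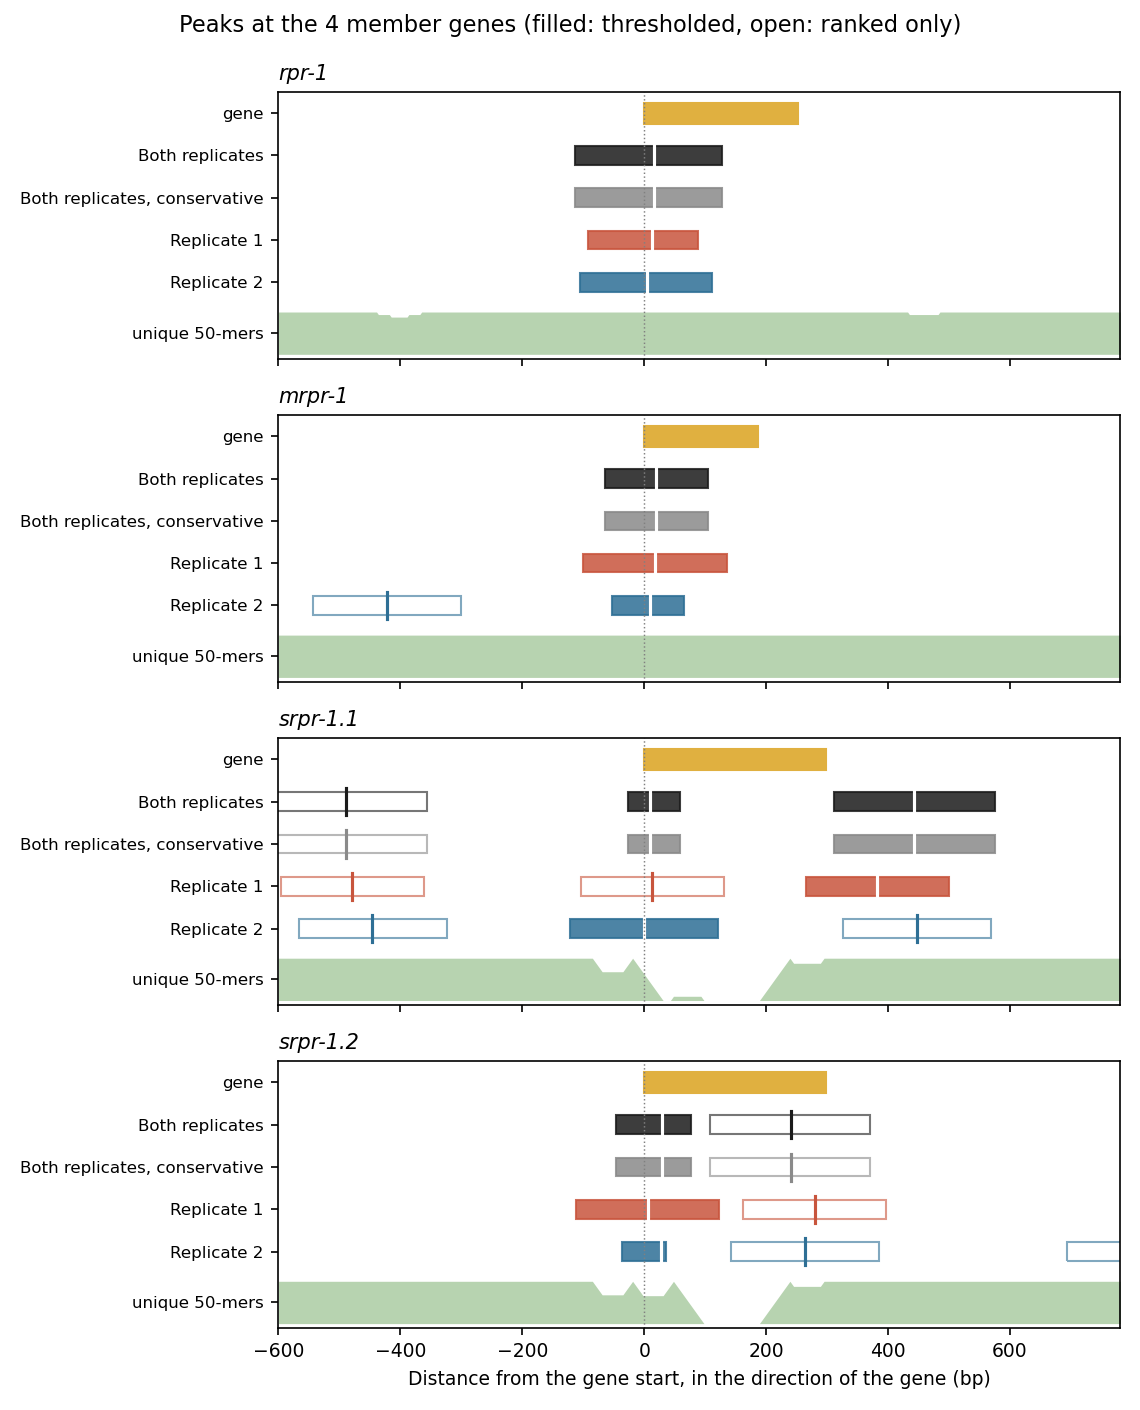
Peaks at the 4 members by distance from the gene start in bp, with the gene as a yellow bar, filled boxes for thresholded peaks, open boxes for candidates of the ranked lists only, and the summit as a line. The green band is the share of 50-base stretches covering each base that occur once in the genome. It dips within srpr-1.1 and srpr-1.2, and the filled boxes sit at the gene start except for those past the end of srpr-1.1.

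All SRP RNA genes but srpr-3 are close copies, 94% to 99% identical to each other. Values at these copies are uncertain where reads could not be assigned to 1 copy. The gene sequences of srpr-1.1 and srpr-1.2 were 98.3% identical, with 5 differences over 299 aligned positions. Their 100 bases upstream were 95% identical and their 100 bases downstream 49.5%. The first 40 bases of the gene, in capitals above, were the same in srpr-1.1, srpr-1.2, srpr-2.1 and srpr-2.2 and differed in srpr-3. Of the 50-base stretches inside the gene, 23.3% occurred once in the genome for srpr-1.1 (58 of 249) and 41.2% for srpr-1.2 (103 of 250). For rpr-1 and mrpr-1 every such stretch occurred once. With 36-base stretches the shares were 14.8% for srpr-1.1 and 28.8% for srpr-1.2, and with 100-base stretches they were 54.3% for srpr-1.1 and 54.5% for srpr-1.2, so both the shares and the gap between the copies depended on the length taken. Of the 50-base stretches that cover a main list summit, 42% occurred once at the start of srpr-1.1 and 66% at srpr-1.2, whereas all did so at the summit past the end of srpr-1.1. The sources used here do not give the read length or the handling of reads with several matches, and the part of shared sequence in these ranks and positions was not tested.

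The 3 SRP RNA genes outside the member list went different ways. srpr-2.2 (WBGene00195017), in an intron of the kinesin gene klp-6, had a summit 44 bp inside the gene in the main list, with a signal value of 179.8 (rank 393), above both members of its family. It was thresholded in replicate 1 (signal value 79.9, rank 498) and in replicate 2 (signal value 87.6, rank 446). srpr-2.1 (WBGene00195016) had main list summits 6 bp (signal value 114, rank 767) and 206 bp (signal value 67.5, rank 1741) from its start, a thresholded peak in replicate 1 (signal value 66.4) and none in replicate 2. srpr-3 (WBGene00195018), whose gene sequence was 81.7% to 82.7% identical to the other copies and whose 50-base stretches all occurred once, had no thresholded peak. Its candidate in the ranked list of both replicates had a signal value of 70.4 and an IDR of 0.0155. By count, 2 of these 3 genes had a summit in the main list, 2 in replicate 1 and 1 in replicate 2.

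The strongest summit of every member lay 10 to 30 bp inside the gene in the main list. For the 486 tRNA genes with a summit, the median offset of the strongest one was 14 bp, inside the gene (quartiles 3 and 30 bp). At 105 snoRNA genes the median was -42 bp, upstream of the gene (quartiles -83 and 19 bp), and at 32 snRNA genes it was 29 bp (quartiles -22.25 and 70.75 bp). The offsets of all 4 members fell within the quartiles of the tRNA genes, with srpr-1.2 at the edge, and within those of the snRNA genes, and those of rpr-1 and srpr-1.1 fell within the quartiles of the snoRNA genes as well. By signal percentile within the main list, rpr-1 was at 99.8, mrpr-1 at 89.5, srpr-1.2 at 72.2 and srpr-1.1 at 65.3. The medians over genes with a summit were 82.7 for tRNA genes, 75.2 for snoRNA genes and 58.9 for snRNA genes. The member peaks were 242 bp (rpr-1), 170 bp (mrpr-1), 123 bp (srpr-1.2) and 87 bp (the peak at the start of srpr-1.1) wide. The strongest peaks at tRNA genes had a median width of 172.5 bp (quartiles 122 and 264 bp), so the widths at rpr-1, mrpr-1 and srpr-1.2 lay within the tRNA quartiles and that at srpr-1.1 below them. At snoRNA and snRNA genes the median width was 264 bp, which was also the width of 77.8% of all main list peaks. The summit past the end of srpr-1.1 had a peak of the common 264 bp. In the list of replicate 1 the peaks at mrpr-1, srpr-1.1 and srpr-1.2 had that list's most common width, 236 bp, and the peak at rpr-1 was 183 bp wide. In the list of replicate 2 the widths were 217 bp at rpr-1, 118 bp at mrpr-1, 73 bp at srpr-1.2 and, at srpr-1.1, the most common 244 bp.

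**Figure D3:**
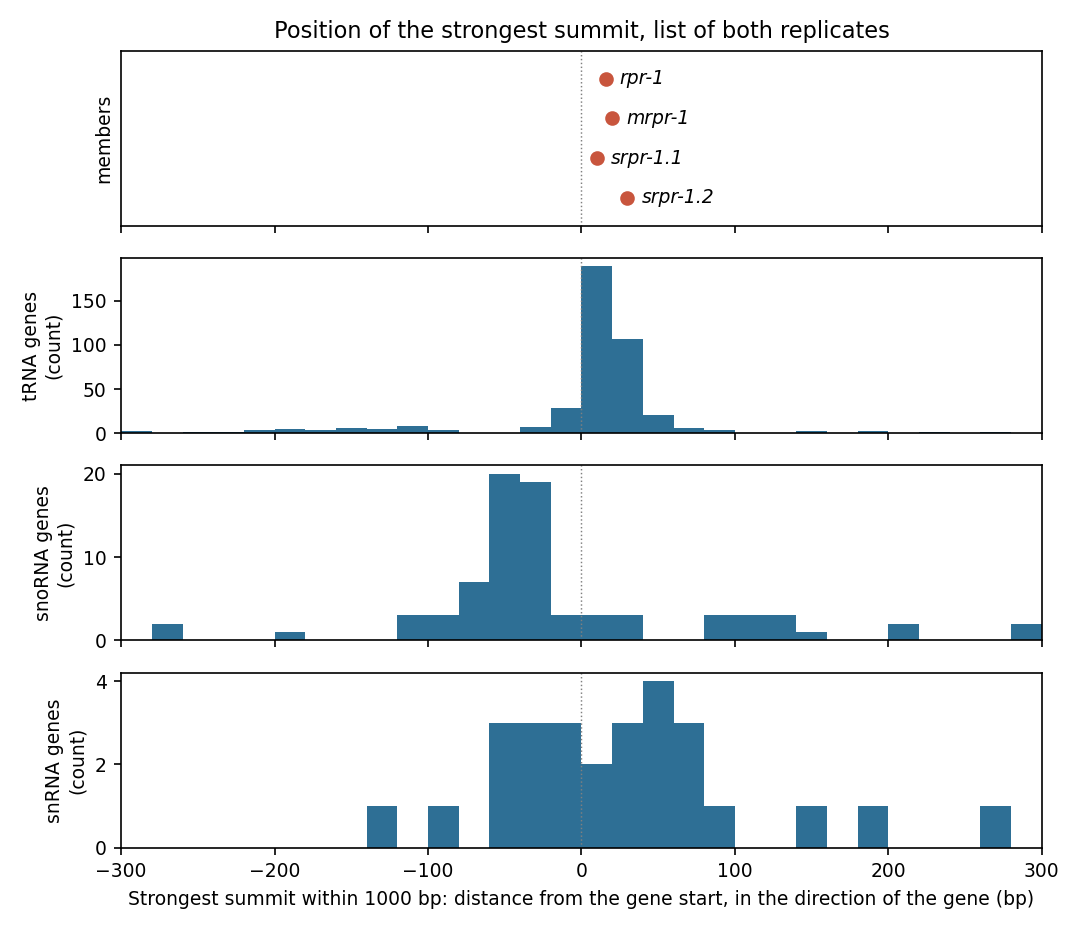
Distance in bp of the strongest summit from the gene start in the main list, for the 4 members (points, top) and as counts of genes in 20 bp bins for tRNA, snoRNA and snRNA genes. Of the genes with a summit, 81 tRNA, 27 snoRNA and 5 snRNA genes fall beyond the 300 bp drawn. The members stand over the tallest tRNA bins, and the snoRNA bins peak before the gene start.

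Peaks at rpr-1, mrpr-1 and srpr-1.2 overlapped a peak in both replicate lists by at least 1 bp. Neither main list peak of srpr-1.1 did, as 1 overlapped a peak of replicate 1 alone and the other a peak of replicate 2 alone. Over the whole main list, 600 of 1804 peaks (33.3%) overlapped a peak in both. This share is over peaks of every rank, weak ones included. It was not computed for peaks as strong as the members, so nothing is read from the difference. The 3 recurring members were compared with the other 599 recurring peaks, and those with the most similar signal percentiles in the main list and in both replicates were taken as most like them. For rpr-1 these were peaks next to the snoRNA genes W03C9.9, Y23H5B.10 and T03F7.8, with summits 55 to 66 bp from the nearest gene start and main list signal values of 545, 541 and 537. For mrpr-1 the closest was a peak 11 bp from the start of the tRNA gene WBGene00014352, with a main list signal value of 251, 114 in replicate 1 and 138 in replicate 2. The next were a peak 244 bp from the start of the protein-coding gene W08A12.2, with a main list signal value of 248, and a peak 25 bp from the start of the tRNA gene WBGene00022997, with 241. For srpr-1.2 the closest was a peak at the start of the snoRNA gene T26A8.6, with a main list signal value of 139.7, followed by peaks at the tRNA genes WBGene00014585 and WBGene00010733. These likenesses rest on 3 values a peak from shared libraries and describe rank only.

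**Figure D4:**
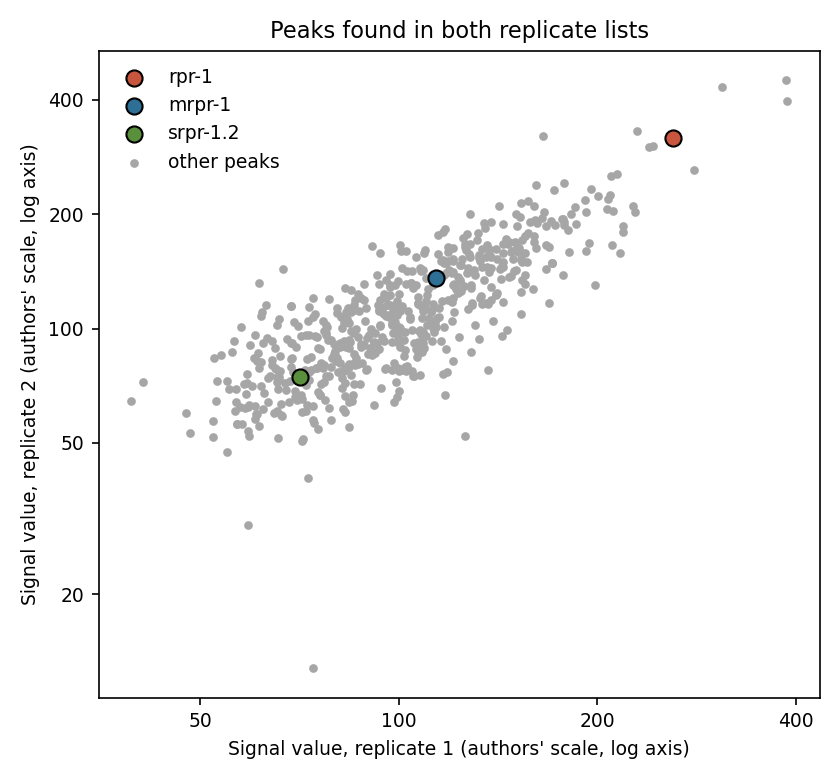
Signal value of each main list peak that overlapped both replicate lists, in replicate 1 (horizontal) and replicate 2 (vertical), on log axes in the authors' units. rpr-1 lies near the top right corner, mrpr-1 in the middle of the cloud and srpr-1.2 toward its lower end. srpr-1.1 is not drawn because neither of its peaks overlapped both lists.

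The upstream DNA of rpr-1 and mrpr-1 shared 2 stretches of letters at nearly the same distance from the gene. TATATAA was found 30 bases before rpr-1 and 32 bases before mrpr-1, and in none of the 5 SRP RNA genes, when 100 bases upstream were searched on both strands. It was present in 3.52% of all genes, 14% of snRNA genes and 1.63% of tRNA genes. Among genes with TATATAA, the share with a main list summit within 1000 bp was 40% for tRNA, 30% for snoRNA and 33.3% for snRNA genes. Over all genes of these classes it was 79.4%, 30.3% and 24.8%. For miRNA, ncRNA and protein-coding genes it was 28.6%, 14% and 7.66%, against 11.5%, 9.47% and 8.96%. These differences were not tested. The longest match with at most 1 mismatch between the upstream windows of rpr-1 and mrpr-1 was GTGTCNGCCGC, 56 bases before rpr-1 and 58 bases before mrpr-1, where N is any base. The match was found by comparing these 2 genes, so their holding it is no result. Among all 46890 genes it was found upstream of 14 (0.0299%), in the direction of the gene in all 14, and its first letter lay between -61 and -46 bp of the start in each. Of the 12 genes other than rpr-1 and mrpr-1, 9 had a main list summit within 1000 bp, at 9 different positions. By class these were 4 of 6 snoRNA genes, against 30.3% of all snoRNA genes, and 4 of 4 genes of the ncRNA class, against 9.47% of all genes of that class. They also included the 1 protein-coding gene and left out the 1 miRNA gene, and over all genes the share was 7.16%.

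These 12 genes, named after their values were seen, were noncoding RNA genes with 1 exception, R02F2.5. The 9 with a summit were the snoRNA genes F59C6.15 (rank 276), Y55F3BR.9 (rank 307), T26A8.6 (rank 563) and T06D8.11 (rank 897), the noncoding genes CD4.17 (rank 414), lfor-1 (rank 424), K07C10.6 (rank 1146) and lfor-2 (rank 1334), and the protein-coding gene R02F2.5 (rank 991). The summits at lfor-1 and R02F2.5 lay 688 bp and 724 bp past the gene start, and the other 7 lay between 72 bp before and 112 bp past it. The 3 without were the snoRNA genes Y67A10A.14 and F25H2.15 and the miRNA gene cel-mir-8196a. The stretch alone was common elsewhere. It occurred at 643 places in the genome, among them those before the 14 genes. Of the 643, 41 (6.38%) had a main list summit within 1000 bp and 24 (3.73%) within 200 bp. No share was computed for places without the stretch, and the 7.16% over all genes is for windows that also span the gene. Neither an excess nor the lack of one is therefore read from these shares. The matches are letters in a sequence, and no factor was measured at them other than LIM-7.

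The SRP RNA members held neither stretch. Upstream of srpr-1.1, srpr-1.2 and srpr-2.2 the letters ACTCTC began 51 bases before the gene, and upstream of srpr-2.1 they began 50 bases before it, which can be read in the lower-case parts above. They were absent from the 100 bases before srpr-3 and before rpr-1 and mrpr-1. This 6-base word was present upstream of 3.59% of all genes, 7.03% of tRNA genes and 13.2% of snRNA genes. Among genes with the word, the share with a main list summit within 1000 bp was 86% for tRNA, 31.8% for snoRNA and 29.4% for snRNA genes. Over all genes of these classes it was 79.4%, 30.3% and 24.8%. For miRNA, ncRNA and protein-coding genes it was 22.2%, 10.7% and 10.1%, against 11.5%, 9.47% and 8.96%. The word was picked after the sequences were seen, and a link between it and the peaks was not tested. The core of the tRNA B box, GTTCNANNC, was found on either strand inside none of the 4 members and inside 96.1% of tRNA genes.

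Promoter summits were also counted at genes for the proteins that work with these RNAs. A list of 34 symbols was drawn up, of which 28 matched the annotation. It covered protein subunits of RNase P and RNase MRP, of the SRP and its receptor, and of RNA polymerase III and its initiation factors. In the main list 4 of the 28 (14.3%) had a promoter summit, against 3.77% of all 19973 protein-coding genes. In the conservative list it was 3 of 28 (10.7%), against 3.43%. In replicate 1 it was 1 of 28 (3.57%), against 1.77%, and in replicate 2 it was 0 of 28, against 1.85%. The share was above that of all protein-coding genes in both lists made from the 2 replicates, on counts of 3 and 4 genes that were given no test. By group, summits were at 0 of 4 RNase P and RNase MRP genes, 2 of 8 SRP genes and 2 of 16 RNA polymerase III genes. The SRP genes were F37F2.2, which encodes the SRP19 subunit (signal value 87.8, rank 1319), and R186.3, which encodes the beta subunit of the SRP receptor (signal value 77.3, rank 1639). The RNA polymerase III genes were rpc-2, for a subunit of the enzyme (signal value 83.5, rank 1478), and snpc-3.4, for a subunit of the SNAP complex (signal value 86.9, rank 1362). The summit offsets from the start were -291 bp at F37F2.2, -813 bp at R186.3, 120 bp at rpc-2 and -975 bp at snpc-3.4. Those at R186.3 and snpc-3.4 lay near the far edge of the window. All 4 peaks ranked below every member peak of the main list, and rpc-2 alone had a peak in a replicate list (signal value 40.6, rank 864 of 883 in replicate 1).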

How the data were processed

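ChIP-seq peak lists of 2 biological replicates, in ce11 coordinates per the submitters' labels, were used as deposited. The sources used here do not give the aligner, peak caller or read length, and read depth is unknown from peak lists. The deposited signal value of each peak was ranked within its list. The deposited q-value is on a −log10 scale and served for an alternative ranking. In the ranked lists the authors gave the IDR as a score, its −log10, which does not exceed 5. A total of 16 columns of unnamed single inputs were not used. Every peak end lay within the chromosome lengths of the WBcel235 reference, whose Ensembl release 115 annotation gave gene positions. Distances, overlaps, k-mers and alignments were computed in Python 3.11.15 with pandas 2.3.3 and Biopython 1.88, and the distance step was tested on planted summits. No p-value was computed, since there was 1 group. The members, lists and letters searched were chosen with earlier results of these data known. Named genes were the members, genes within 1000 bp, listed protein genes with a promoter summit, and the 3 most like peaks per recurring member. Alternatives were other distances, other lists, each replicate alone, ranking by q-value, other overlap rules and other promoter windows.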

Additional observations from a re-analysis of the deposited data

How the results depend on the processing

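Of 56 alternative values for 15 results, 36 stayed within the replicate spread or within 1.5 times the count, and 20 moved. The spread came from the same 2 replicates, so a value from a single replicate stays within it more easily where the replicates differ more. All 4 members kept a summit under each distance (1000, 500 and 200 bp), in the conservative list, among the stronger peaks and in each replicate alone. The share over all genes is given only for 1000 bp in the full lists, so the narrower counts have no background. Of the members, 3 recurred under each overlap rule. Over all main list peaks the share was 33.3% for an overlap of 1 bp and 32.5% for summits within 100 bp. It was 21.8% for the larger overlap required of both peaks. Without replicate 2 or without replicate 1, the percentile ran from 99.46 to 99.55 for rpr-1, 73.7 to 81.07 for mrpr-1, 23.7 to 50.2 for srpr-1.1 and 32.8 to 36.8 for srpr-1.2, in shorter lists whose ranks show no change of level. The summit offset then ran from 4 to 13 bp for rpr-1, 9 to 18 bp for mrpr-1, -1 to 382 bp for srpr-1.1 and 6 to 27 bp for srpr-1.2. The peak width ran from 183 to 217 bp for rpr-1, 118 to 236 bp for mrpr-1, 236 to 244 bp for srpr-1.1 and 73 to 236 bp for srpr-1.2. In all these ranges the 2 values for srpr-1.1 belong to different peaks, past the gene's end in replicate 1 and at its start in replicate 2. The widths at mrpr-1 and srpr-1.2 counted as stayed, under replicate spreads of 83.4 and 115.3 bp. Ranked by q-value in the main list, the percentile was 99.58 for rpr-1, 97.6 for mrpr-1, 74.5 for srpr-1.1 and 73.4 for srpr-1.2. By q-value in replicate 1 it was 99.7 for rpr-1, 83.3 for srpr-1.2, 43.1 for srpr-1.1 and 21.3 for mrpr-1. In replicate 2 it was 99.02 for rpr-1, 77.6 for srpr-1.2, 69.2 for mrpr-1 and 34.3 for srpr-1.1. The place of mrpr-1 next after rpr-1 thus held by signal value, but not by q-value in either replicate. The count of protein genes with a promoter summit was 0 to 1 in a single replicate. It was 1 when the promoter window was narrowed to 500 bp before and 100 bp after the start. No share over all protein-coding genes is given for that narrower window. With genes taken by RefSeq product name, an alternative chosen after seeing the data, it was 3 of 32. The causes were not tested. No paired analysis was possible because there was 1 group. With 2 replicates, no depth and no control library, the precision of a single peak is not known.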

Other observations

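A further short RNA gene, yrn-1 (WBGene00006967, WBcel235 chromosome IV, 7499508 to 7499612, plus strand), lies in an intron of F55G1.15 on the other strand and encodes a Y RNA. It had a summit 28 bp inside the gene in the conservative list, with a signal value of 156 (rank 494 of 1649), and 33 bp inside it in replicate 1, with a signal value of 78.6 (rank 509 of 883). In replicate 2 its candidate had a signal value of 58.4 and an IDR of 0.0111, just over the limit of 0.01. The main list held no peak there, although the main list was the longer of both lists made from the pair of replicates. Its ranked list held no candidate within 1000 bp of yrn-1 either, so no IDR limit decided this. In the ranked list of the conservative version the peak had an IDR of 0.00101. The reason for the difference is not known from the lists. Unlike the 4 members, yrn-1 held the B box letters GTTCNANNC, 63 bp from its start.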
